A study of Mus musculus with 55 samples.

Results

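The set was 10 genes of the count table that make long RNAs with no protein product, most of them kept in the nucleus, and they were chosen by name: Malat1, Meg3, Miat, Snhg11, 9530059O14Rik, Neat1, Rian, Mirg, Kcnq1ot1 and Pantr1. They were 10 of 55487 genes in the table, and all 10 were among the 16168 genes that passed the filter on low counts. The names were chosen because earlier work on these same counts had shown several of them low in younger diestrus mice. Their values in diestrus are therefore a description. Counts of genes past a threshold are printed for comparisons that hold diestrus mice, beside the share of all genes, but only comparisons with no diestrus mouse are read as tests of the 10.

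Poly-A RNA was sequenced from the dorsal hippocampus of 55 adult mice on a C57/BL6j background. The RNA came from the supernatant of a detergent lysate that was spun before extraction. The mice were wild type (WT) or knock-outs (KO) of Cnih3, which encodes an auxiliary protein of AMPA glutamate receptors, and were males or females staged by vaginal cytology as metestrus, diestrus, proestrus or estrus. Among WT mice there were 5 males (12.00 to 23.71 weeks of age), 4 in metestrus (13.00 to 18.57 weeks), 6 in diestrus (11.71 to 17.14 weeks), 5 in proestrus (12.00 to 18.71 weeks) and 7 in estrus (16.29 to 20.29 weeks). Among KO mice there were 7 males (18.29 to 23.71 weeks), 5 in metestrus (13.29 to 22.57 weeks), 6 in diestrus (10.86 to 23.43 weeks), 4 in proestrus (13.00 to 14.57 weeks) and 6 in estrus (13.00 to 20.71 weeks). The diestrus mice fell into 7 younger ones (3 WT and 4 KO, 10.86 to 13.86 weeks) and 5 older ones (3 WT and 2 KO, 16.29 to 23.43 weeks), split at 14 weeks. By the same split, 10 of the 43 mice outside diestrus were younger. Each mouse gave 1 hippocampus and 1 library. All 7 younger diestrus mice had Cnih3 x B6 parents, as did 3 of the 5 older ones, and the other 2 older ones, both WT, had B6 x B6 parents.

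Libraries held 25881295 to 63547098 counts (median 53384170). The 7 younger diestrus libraries held 52307959 to 58932939 counts and the 5 older ones 38769215 to 56890800, so the younger ones were not the shallow ones. Mitochondrial mRNAs took 1.49 to 2.32% of counts in younger and 1.35 to 2.50% in older diestrus mice, and ribosomal RNA took 5.17 to 6.91% and 4.46 to 11.8%. The scaling factors for library composition (TMM) did not overlap, at 0.926 to 0.990 in younger and 0.999 to 1.04 in older diestrus mice. Genes detected were 27048 to 27713 in younger and 27373 to 28935 in older diestrus mice. The KO line lacks an exon of Cnih3 but still makes its RNA, and counts of Cnih3 overlapped between genotypes, at 21.6 to 62.5 CPM (counts per unit of the scaled library total, in millionths) in 27 WT mice and 21.6 to 47.8 CPM in 28 KO mice, so a gene-level count does not check the knock-out label. Pyramidal, granule cell and pan-neuronal markers were detected in every library, as the tissue label requires. The labels give no date of extraction, library making or sequencing, so age and any handling shared by the 7 younger mice cannot be told apart.

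Many long non-coding RNAs act in the nucleus, where they are made. Malat1 collects in nuclear speckles, the bodies that store splicing factors, and Neat1 is the RNA scaffold of paraspeckles. Meg3, Rian and Mirg are read in the same direction from the maternal copy of the imprinted Dlk1-Dio3 domain and carry microRNAs and small nucleolar RNAs (snoRNAs) in their introns and exons. Kcnq1ot1 is an imprinted antisense RNA that silences genes around Kcnq1 on the paternal copy. Miat, also called Gomafu, forms nuclear foci in neurons, Snhg11 is a snoRNA host that is abundant in neurons, and Pantr1 lies beside the neuronal transcription factor gene Pou3f3. The role of 9530059O14Rik is not given here.

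The sequences below are shown for the RNAs on which the results turn. A poly-A library primes on runs of A, and Malat1 is known to end its mature nuclear form in an A-rich stretch that is written in the genome rather than added as a tail. In the annotated transcript Malat1-201, of 6983 bases, the longest run of A is 12 bases, at bases 6674 to 6685. The line below shows bases 6594 to 6691 (GRCm38 chr19:5795982-5796079, minus strand), mostly sequence before that run, with the run in capitals.
Malat1, genomic A-rich stretch: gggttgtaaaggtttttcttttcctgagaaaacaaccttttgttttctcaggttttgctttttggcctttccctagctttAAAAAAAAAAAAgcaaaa
The capitals mark a place where an oligo-dT primer could pair with an RNA that has no added tail. Whether priming there contributed to the Malat1 counts was not tested.

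Meg3, Rian and Mirg lie in a row on the plus strand of chromosome 12, with gaps of 32.2 kb and 68.0 kb, and their promoter windows (RefSeq, GRCm38.p6, 250 bases before to 50 after the annotated start) are shown because the 3 RNAs behaved differently. Capitals mark matches, on either strand, to TATAAA, TGACGTCA (a full cyclic AMP response element) and CCAAT. In Meg3 the 2 TATAAA matches overlap.
Meg3, chr12:109540746-109541045, plus strand: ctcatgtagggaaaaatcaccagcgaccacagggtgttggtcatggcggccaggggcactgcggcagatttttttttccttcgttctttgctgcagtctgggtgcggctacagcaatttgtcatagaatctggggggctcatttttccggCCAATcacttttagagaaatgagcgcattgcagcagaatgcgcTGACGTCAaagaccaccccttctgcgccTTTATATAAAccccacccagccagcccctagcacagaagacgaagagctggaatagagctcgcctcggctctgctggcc
Rian, chr12:109603695-109603994, plus strand: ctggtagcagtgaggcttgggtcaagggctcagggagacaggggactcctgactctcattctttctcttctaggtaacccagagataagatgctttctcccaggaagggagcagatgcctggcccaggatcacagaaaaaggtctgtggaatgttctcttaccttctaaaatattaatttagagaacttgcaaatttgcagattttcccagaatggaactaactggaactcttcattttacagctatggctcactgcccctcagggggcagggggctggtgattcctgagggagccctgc
Mirg, chr12:109734731-109735030, plus strand: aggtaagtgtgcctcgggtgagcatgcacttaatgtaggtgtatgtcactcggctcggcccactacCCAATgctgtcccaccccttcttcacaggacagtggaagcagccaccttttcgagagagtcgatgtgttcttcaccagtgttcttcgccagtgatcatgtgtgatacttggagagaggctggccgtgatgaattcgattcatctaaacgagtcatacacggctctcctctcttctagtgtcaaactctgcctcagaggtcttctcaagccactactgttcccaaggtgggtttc
The Meg3 window shown held 13 CpG pairs, the Mirg window 10 and the Rian window 0. A second Meg3 window, not shown, held 1 CpG pair and no match to the motifs searched. The Mirg window lies inside the span of Mirg given below. Over 32851 promoter windows of the same length, TATAAA was present in 13.6%, TGACGTCA in 1.79% and CCAAT in 37.4% on either strand. Windows were found for 8 of the 10 genes, with 2 windows for Meg3, and no window was matched for Neat1 or Pantr1. GGGCGG, the core of a GC box, was searched in the same way, was present in 35.7% of windows and was matched 7 times in 9530059O14Rik, 1 time in Miat and in none of the windows of the other 6 genes.

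In the GENCODE annotation of GRCm38, the 10 genes range from unspliced to many exons. Malat1 (chr19:5795690-5802672, minus strand) and Neat1 (chr19:5824708-5845478, minus strand) each form 1 exon block, 22035 bases apart. Kcnq1ot1 (chr7:143203458-143296549, minus strand) is also 1 block, 93.092 kb long and antisense to Kcnq1. The library kit did not mark strand, so reads of Kcnq1ot1 and of the introns of Kcnq1 cannot be told apart. Meg3 (chr12:109541001-109571726) holds 1 annotated microRNA hairpin on its strand, Rian (chr12:109603940-109661716) holds 3 hairpins and 13 snoRNAs in 19 exon blocks, and Mirg (chr12:109729764-109749460) holds 14 hairpins. Miat lies at chr5:112213228-112229395 on the minus strand, Snhg11 at chr2:158375638-158386145 on the plus strand with 2 snoRNAs, 9530059O14Rik at chr9:122572499-122679596 on the plus strand and Pantr1 at chr1:42590782-42694842 on the minus strand. GENCODE labels Snhg11 as protein coding, while 5 of its 7 deposited transcripts are labelled as long intergenic non-coding RNA.

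Per kilobase of exon, Malat1 was the highest of the 10. Its median over the 43 mice outside diestrus was 214 CPM per kilobase (RPKM), followed by Snhg11 at 63.3, Meg3 at 60.2 and Pantr1 at 36.6 RPKM. Rian stood at 6.84, 9530059O14Rik at 5.19 and Miat at 4.49 RPKM. Neat1 was at 1.57, Mirg at 0.532 and Kcnq1ot1 at 0.103 RPKM. In the younger diestrus mice the order was different, with Pantr1 highest at 44.2 RPKM and Malat1 next at 39.5, above Snhg11 at 14.6 and Meg3 at 9.05 RPKM. In sum the 10 genes took 0.0986 to 0.433% of all counts outside diestrus (median 0.328%, 43 mice), 0.260 to 0.411% in older diestrus mice (median 0.370%, 5 mice) and 0.0709 to 0.107% in younger diestrus mice (median 0.0863%, 7 mice). In these bulk samples, fewer cells of a type, less RNA per cell and less nuclear material in the lysate supernatant cannot be told apart.

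Malat1, the speckle RNA, was at 212, 252 and 373 CPM in the 3 younger WT diestrus mice and at 236, 276, 382 and 420 CPM in the 4 younger KO mice. The older diestrus mice had 753, 1168 and 1554 CPM (WT) and 1732 and 2109 CPM (KO). All 7 younger mice therefore lay below all 5 older ones, in both genotypes. The older median was 5.63 times the younger one, and the fitted log2 difference, younger against older, was −2.28 ± 0.21 (SE, on the log2 CPM scale, like every difference given here). It was −1.99 ± 0.28 in WT and −2.58 ± 0.32 in KO mice. Outside diestrus Malat1 ran from 358 to 2287 CPM (median 1497, 43 mice), and 1 mouse, the WT male replicate 2, lay inside the range of the younger diestrus mice.

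Meg3, the first RNA of the imprinted domain, was at 110, 113 and 164 CPM in younger WT and at 144, 168, 201 and 205 CPM in younger KO diestrus mice. Older diestrus mice had 855, 985 and 1327 CPM (WT) and 1149 and 1253 CPM (KO). The younger mice were the 7 lowest of all 55, with none of the other 48 at or below their highest value. The older median was 7.02 times the younger one, the widest such ratio of the 10 genes, and the log2 difference was −2.86 ± 0.21, or −3.00 ± 0.27 in WT and −2.73 ± 0.31 in KO mice. Outside diestrus Meg3 was at 255 to 1427 CPM (median 1089).

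**Figure D1:**
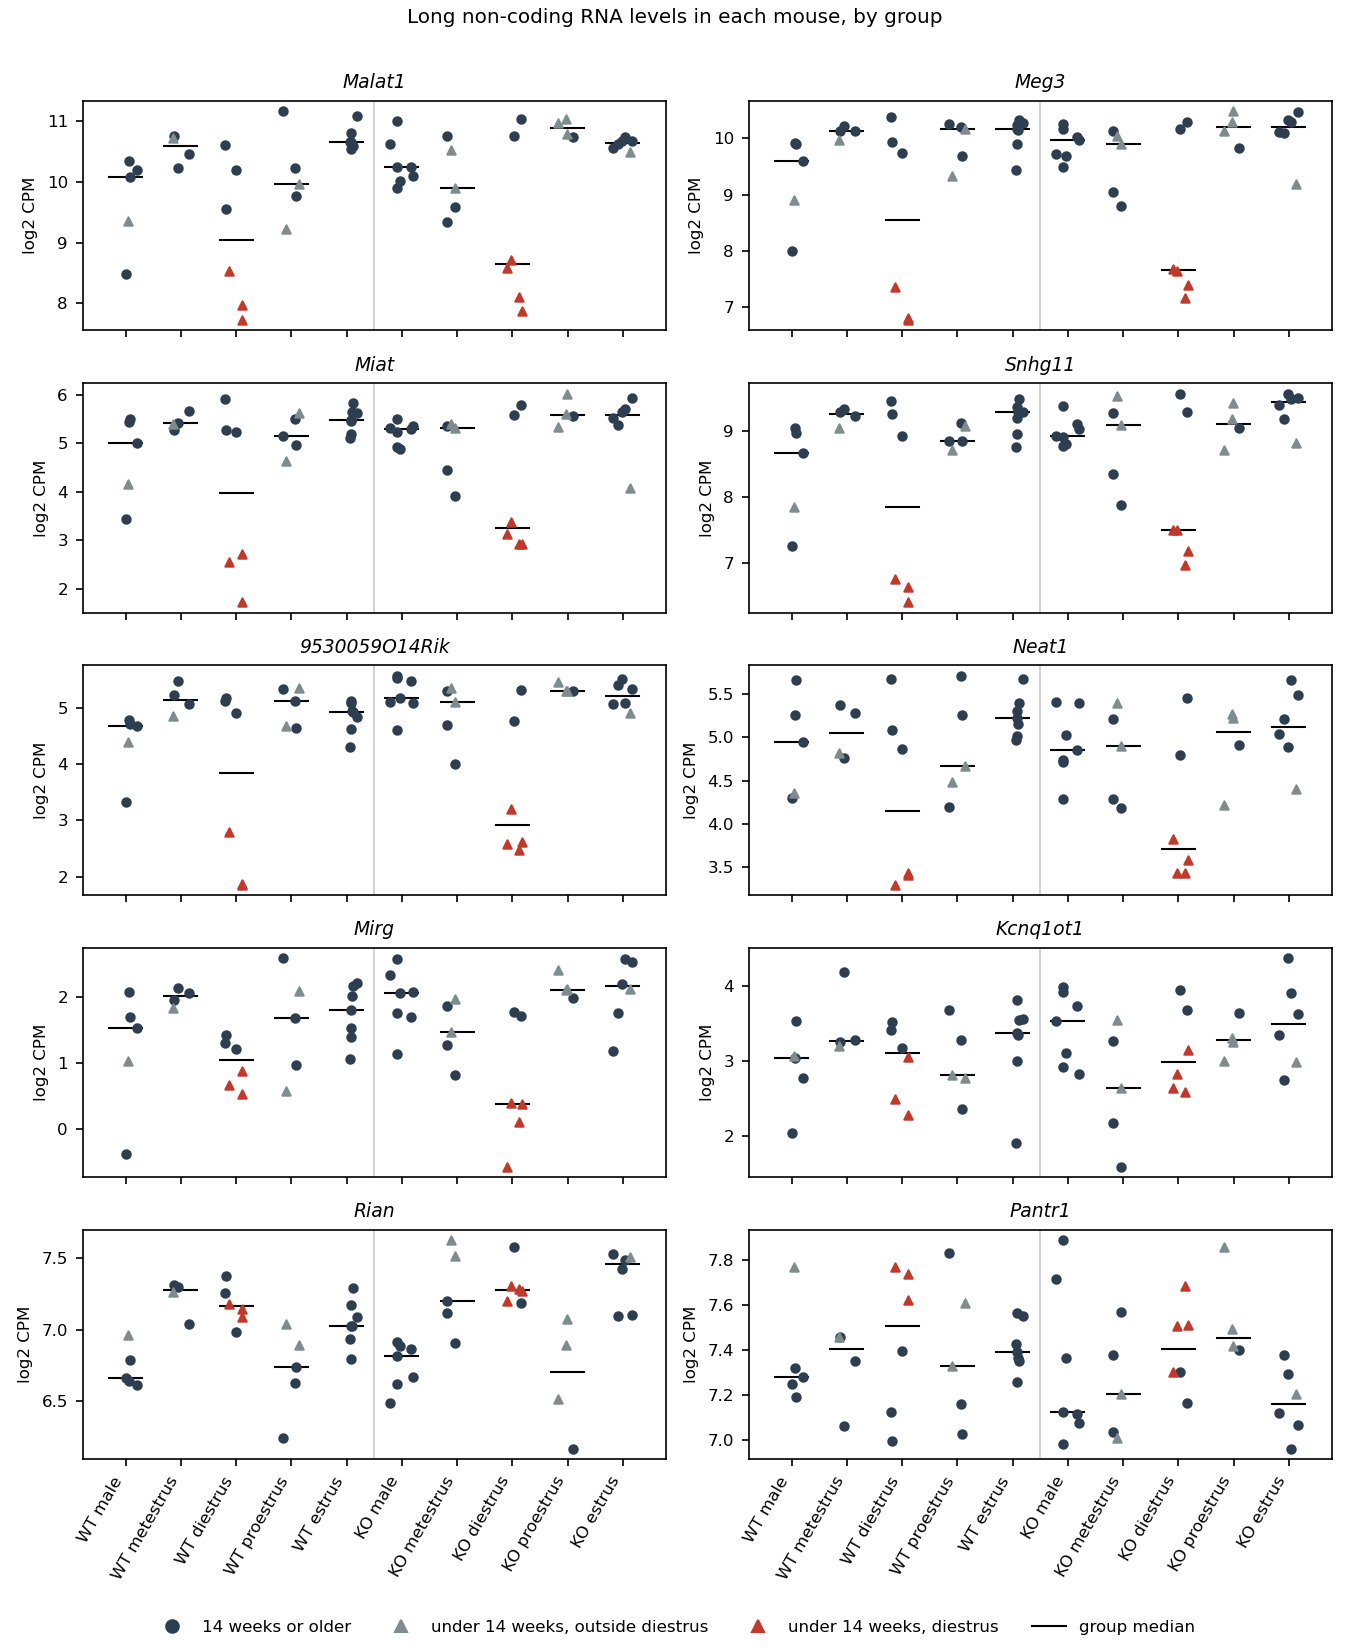
Level of each of the 10 RNAs in each of 55 mice, as log2 CPM on the vertical axis, by genotype and stage or male on the horizontal axis. Triangles are mice under 14 weeks, red ones the 7 younger diestrus mice, circles older mice, and bars group medians. The red triangles lie below the older diestrus mice for 8 genes, overlap them for Rian and Pantr1, and lie apart from the younger mice of other stages for Malat1, Meg3, Miat, Snhg11, 9530059O14Rik and Neat1.

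Miat, the neuronal nuclear RNA, was at 3.31 to 10.4 CPM in the 7 younger diestrus mice (median 7.62) and at 37.6, 38.4, 47.6, 55.05 and 59.98 CPM in the 5 older ones. Snhg11, the snoRNA host, was at 84.3, 99.4 and 108 CPM in younger WT, at 125, 144, 180 and 181 CPM in younger KO, at 486, 611 and 700 CPM in older WT and at 627 and 753 CPM in older KO diestrus mice. 9530059O14Rik was at 3.61 to 9.24 CPM in the younger (median 5.96) and at 27.4, 30.2, 35.0, 36.4 and 39.9 CPM in the older mice. The younger and older mice did not overlap for any of these 3 genes. The log2 differences were −2.79 ± 0.26 for Miat, −2.35 ± 0.19 for Snhg11 and −2.64 ± 0.22 for 9530059O14Rik. The younger diestrus mice were the 7 lowest of 55 for Miat and for 9530059O14Rik, and 6 of the 7 lowest for Snhg11, where the WT male replicate 2, at 153 CPM, lay among them.

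Neat1, the paraspeckle scaffold, differed by less. It was at 9.84 to 14.2 CPM in the 7 younger mice (median 10.8) and at 27.8, 29.0, 33.8, 43.7 and 50.8 CPM in the 5 older ones. The groups did not overlap, the 7 younger mice were again the 7 lowest of 55, and the log2 difference was −1.61 ± 0.22. Kcnq1ot1 was at 4.82 to 8.82 CPM in the younger mice (median 6.21) and at 8.98, 10.7, 11.4, 12.7 and 15.3 CPM in the older ones, with a log2 difference of −0.84 ± 0.25. The gap between the highest younger and the lowest older value was narrow for Kcnq1ot1, and 18 of the 48 other mice were at or below the younger maximum.

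The other genes of the imprinted domain did not follow Meg3 alike. Mirg, a microRNA host, was at 0.66 to 1.83 CPM in the 7 younger mice (median 1.30) and at 2.31, 2.45, 2.67, 3.27 and 3.42 CPM in the older ones, with a log2 difference of −1.19 ± 0.30. By genotype it was −0.64 ± 0.41 in WT and −1.73 ± 0.43 in KO mice. Mirg counts were few, at 34 to 308 per library (median 159). Rian, the snoRNA host between them, was at 136 to 158 CPM in the younger mice (median 147) and at 127, 145, 153, 166 and 191 CPM in the older ones. The Rian values overlapped, with a log2 difference of −0.09 ± 0.10, in libraries where Meg3, which is 32.2 kb upstream on the same strand, differed 7.02-fold in median. Rtl1, a gene of the same domain that is antisense to a stretch between Meg3 and Rian, had a log2 difference of −3.14 ± 0.36, and without strand its reads cannot be told apart from those of its antisense partner.

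Pantr1 went the other way. It was at 158 to 218 CPM in the younger diestrus mice (median 197) and at 128, 140, 144, 158 and 168 CPM in the older ones, overlapping at the edges, and the log2 difference was 0.38 ± 0.11. By genotype it was 0.52 ± 0.14 in WT and 0.24 ± 0.17 in KO mice. Over all 55 mice Pantr1 was also the least variable, with its highest value 1.90 times its lowest, against 19.6 times for Miat.

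Of the 10 genes, 9 passed a false discovery rate (FDR) of 0.05 in younger against older diestrus (limma, Benjamini-Hochberg over 16168 genes), 8 lower and 1 higher. In the same comparison 35.6% of all genes tested passed, so differences were widespread, and since the genes were chosen on this contrast nothing is read from the 9. The median log2 difference was −1.95 over the 10 genes and −0.01 over all genes tested. Every younger mouse lay below every older one for 8 of the 10, and for 9.51% of all genes tested. Every younger mouse lay above every older one for 0 of the 10, and for 4.90% of all genes.

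**Figure D2:**
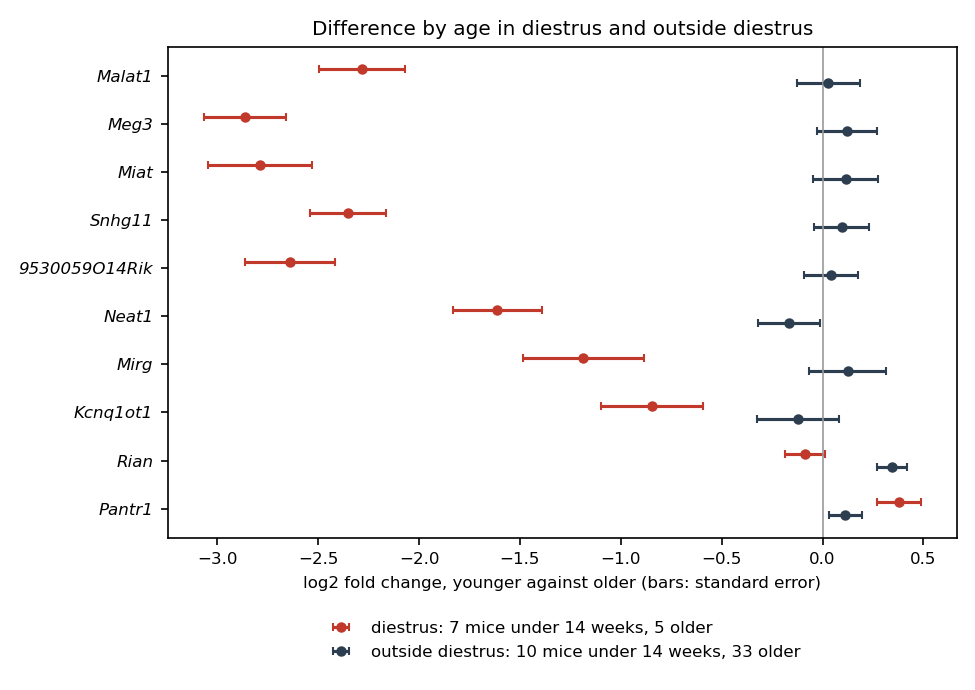
Difference in log2 CPM between younger and older mice for each of the 10 RNAs, in diestrus (red, 7 against 5 mice) and outside diestrus (dark, 10 against 33 mice), with bars of 1 SE. Differences were fitted within groups, and WT estrus and KO males held no younger mouse. In diestrus 8 RNAs lie left of 0, from −0.84 for Kcnq1ot1 to −2.86 for Meg3, while outside diestrus the differences run from −0.17 to 0.34.

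The older diestrus mice stood close to the estrus mice. Between older WT diestrus and older WT estrus, log2 differences ran from −0.65 ± 0.24 for Malat1 to 0.17 ± 0.21 for 9530059O14Rik. Between older KO diestrus and older KO estrus they ran from −0.18 ± 0.27 for 9530059O14Rik to 0.29 ± 0.36 for Kcnq1ot1. The younger diestrus mice against the same older estrus mice gave −2.64 ± 0.23 for Malat1, −3.15 ± 0.22 for Meg3 and −3.12 ± 0.30 for Miat in WT. In KO they gave −2.30 ± 0.24, −2.67 ± 0.23 and −2.45 ± 0.25 for the same genes.

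Comparisons of a whole diestrus group mix both ages. In WT diestrus against estrus (6 against 7 mice) the log2 differences were −1.86 ± 0.32 for Malat1, −2.01 ± 0.37 for Meg3 and −2.02 ± 0.38 for Miat. Of the 10 genes 7 passed FDR 0.05 there, beside 22.1% of all genes, with a median of −1.45. The 7 became 0 by edgeR, 0 by DESeq2 and 5 without quality weights, where 2, 111 and 501 of all 16168 genes passed. That median was between −0.55 and −0.49 without each younger WT mouse in turn, and −0.72 by edgeR. In KO diestrus against estrus (6 against 6 mice) 8 of the 10 passed, beside 30.7% of all genes, with Meg3 at −2.36 ± 0.35 and Pantr1 at 0.32 ± 0.11. The 8 became 0 by edgeR, 1 by DESeq2 and 4 without weights, where 14, 148 and 254 of all 16168 genes passed. Against males, 0 of the 10 passed in WT (0.068% of all genes, 7 of the 10 at an unadjusted p under 0.05) and 8 of the 10 in KO (28.7% of all genes). By edgeR and DESeq2 it was also 0 in WT, beside 8 and 9 of 16168 genes. With Cnih3 x B6 parents alone, which left 4 WT diestrus mice, 3 of them younger, 9 of the 10 passed in WT with a median of −1.75. In that setting 6896 of 16168 genes passed. In KO the 8 became 3 by edgeR, 3 by DESeq2 and 4 without weights, where 813, 1169 and 1057 of all 16168 genes passed. Meg3 was at −1.33 ± 0.45 against WT males and at −2.08 ± 0.32 against KO males. These contrasts share the diestrus mice and are no independent support for one another.

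Age could be tested outside diestrus, in mice that are no part of the diestrus contrast, but only from 12.00 weeks up. The younger diestrus mice began at 10.86 weeks, so the test does not reach the youngest of them. Malat1 was at 596 to 2096 CPM (median 1453) in the 10 younger and at 358 to 2287 CPM (median 1509) in the 33 older mice outside diestrus, and Meg3 at 479 to 1427 (median 1030) and 255 to 1411 CPM (median 1108). The ranges overlapped nearly whole. The fit compares ages within groups, and WT estrus and KO males, 7 mice each, held no younger mouse. The fitted differences therefore rest on the other groups and can differ in sign from the medians. The log2 differences were 0.03 ± 0.16 (FDR 0.96, limma) for Malat1 and 0.12 ± 0.15 (FDR 0.75) for Meg3. Miat (0.11 ± 0.16), Snhg11 (0.10 ± 0.14), 9530059O14Rik (0.04 ± 0.13) and Neat1 (−0.17 ± 0.15) also did not pass. Whether the age difference itself depended on diestrus was not tested, since the diestrus values chose the genes.

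Rian was the gene of the 10 that passed. Younger mice outside diestrus had 91.3 to 197 CPM (median 133) and older ones 71.8 to 185 CPM (median 121), a log2 difference of 0.34 ± 0.07 (FDR 0.025, limma, group means removed by the fit). In that comparison 0.489% of all genes passed. The call was lost in 8 of the refits that left out 1 mouse, with FDR up to 0.41 without the KO metestrus replicate 3, while the difference stayed between 0.26 and 0.43.

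Across stages outside diestrus Rian was also the gene that moved. Its mean was 150.5 ± 12.7 CPM (SD, n = 4) in WT metestrus, 106.3 ± 21.2 (n = 5) in WT proestrus, 133.0 ± 14.8 (n = 7) in WT estrus and 106.8 ± 11.1 (n = 5) in WT males. In KO mice it was 157.1 ± 32.1 (n = 5) in metestrus, 104.1 ± 28.0 (n = 4) in proestrus, 165.6 ± 22.5 (n = 6) in estrus and 108.2 ± 11.8 (n = 7) in males. Proestrus mice and males were thus the low ones in both genotypes. By KO stage, Rian fell by 0.57 ± 0.12 in proestrus against estrus (FDR 0.017, limma) and rose by 0.44 ± 0.12 in metestrus against proestrus (FDR 0.032). In WT it rose by 0.48 ± 0.12 in metestrus against proestrus (FDR 0.030), and proestrus against estrus gave −0.29 ± 0.11 (FDR 0.081).

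Those comparisons called few genes overall. The share of all genes passing was 0.507% in KO proestrus against estrus, 4.37% in KO metestrus against proestrus, 0.767% in WT metestrus against proestrus and 6.82% in WT proestrus against estrus, where 0 of the 10 passed and Malat1 (−0.76 ± 0.30, FDR 0.11) and Rian were the 2 at an unadjusted p under 0.05. By edgeR and DESeq2 it was also 0 of the 10 there, beside 15 and 74 of 16168 genes. The WT metestrus call of Rian was lost by edgeR (FDR 0.42), by DESeq2 (FDR 0.17) and without any of 5 mice, among them WT proestrus replicate 3 (FDR 0.22). The KO metestrus call was lost by edgeR (FDR 0.17), without weights (FDR 0.18), with no filter (FDR 0.12) and without any of 6 mice. The KO proestrus against estrus call was lost with no filter (FDR 0.055) and without any of 3 mice. Of 5 choroid plexus markers 4 rose in WT proestrus against estrus, with a median log2 difference of 4.02, and 0 of 5 passed in the 3 stage comparisons where Rian did. Their part in the Rian values was not tested.

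In metestrus against estrus, 0 of the 10 passed in either genotype, and 0% of all genes did (0 of 16168 by limma, edgeR and DESeq2, with 705 genes in WT and 1367 in KO at an unadjusted p under 0.05 by limma). The log2 differences in KO, median −0.51, were all below 0 but for Pantr1, from −0.89 ± 0.28 for Kcnq1ot1 (FDR 0.59) to 0.10 ± 0.12 for Pantr1. In KO metestrus against proestrus 5 of the 10 were at an unadjusted p under 0.05, with Malat1 at −0.88 ± 0.34 (FDR 0.11) and Miat at −0.85 ± 0.33 (FDR 0.11). Malat1 was at 649 and 767 CPM in KO metestrus replicates 1 and 5, against a median of 956 CPM over the 5 KO metestrus mice and 1896 CPM over the 4 KO proestrus mice.

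Females outside diestrus had more Rian than males. Over both genotypes the log2 difference was 0.32 ± 0.07 (FDR 0.019, limma), beside 0.470% of all genes that passed, and it was lost with age as a covariate (FDR 0.23) or without either of KO proestrus replicates 1 and 2 (FDR 0.066 in both refits). Malat1, at 0.41 ± 0.20 (FDR 0.34), and the other 8 genes did not pass. KO against WT outside diestrus gave −0.13 ± 0.13 (Neat1) to 0.29 ± 0.14 (9530059O14Rik, FDR 0.34), with 2 of the 10 at an unadjusted p under 0.05. By limma 0 of the 10 passed, beside 2.23% of all genes. By edgeR and DESeq2 it was also 0, beside 94 and 139 of 16168 genes. The interaction of genotype with proestrus against estrus passed for 0 of the 10 and 0% of all genes (0 of 16168 by limma, edgeR and DESeq2, 2480 at an unadjusted p under 0.05 by limma), with Malat1 at 1.01 ± 0.45 (FDR 0.27) and Pantr1 at 0.51 ± 0.17 (FDR 0.16).

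The RNAs also moved together from mouse to mouse. With the mean of each group removed, the median Pearson r over the 45 pairs of the 10 genes was 0.61 (Spearman rho 0.64) in 55 mice and 0.55 (rho 0.49) in the 43 mice outside diestrus, beside a median of −0.002 and −0.001 over all pairs of tested genes. Group means do not separate the younger from the older diestrus mice, so the values over 55 mice restate in part the contrast that chose the genes, and those over the 43 mice do not hold it. Genes measured in the same libraries share their depth, scaling and RNA quality, and these values are a description with no test. Malat1, Meg3, Miat, Snhg11, 9530059O14Rik and Neat1, grouped after their values were seen, had r of 0.69 to 0.97 in their 15 pairs over 55 mice and of 0.29 to 0.93 outside diestrus.

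**Figure D3:**
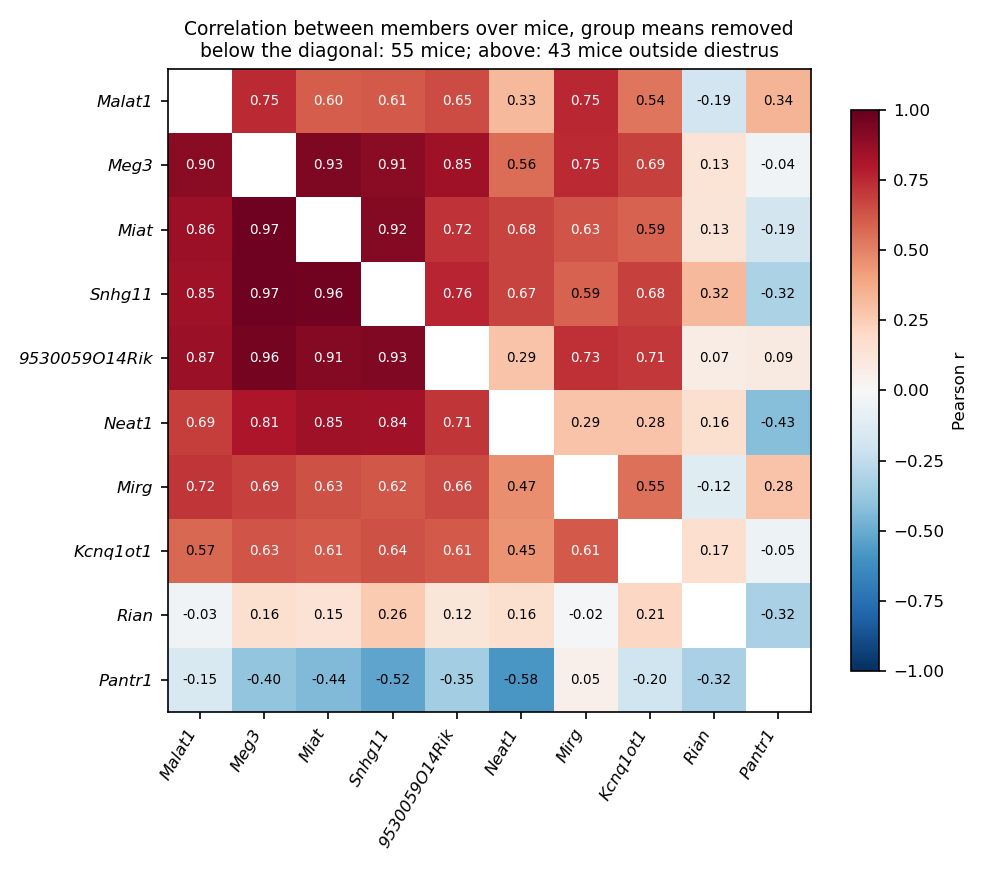
Pearson r of log2 CPM between each pair of the 10 RNAs with group means removed, over 55 mice below the diagonal and over the 43 mice outside diestrus above it. Meg3, Miat and Snhg11 form tight pairs, with Meg3 and Snhg11 at 0.97 and 0.91 and Meg3 and Miat at 0.97 and 0.93, and the rows of Rian and Pantr1 are pale or negative.

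Meg3 and Snhg11, on chromosomes 12 and 2, had r of 0.97 in 55 mice and 0.91 in the 43 outside diestrus, where it was 0.88 without the 2 mice farthest in Meg3. Malat1 and Meg3 had r of 0.90 and 0.75. Malat1 and Neat1, neighbours on chromosome 19, had r of 0.69 in all mice but 0.33 outside diestrus. Meg3 and Mirg had r of 0.69 and 0.75, while Meg3 and Rian had 0.16 and 0.13 and Rian and Mirg −0.02 and −0.12. Within the imprinted domain the middle gene thus varied apart from its neighbours on both sides. Pantr1 had r of −0.58 to 0.05 with the other 9 in 55 mice and of −0.43 to 0.34 outside diestrus, where its r with Malat1 was 0.34 against −0.15 in 55 mice.

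**Figure D4:**
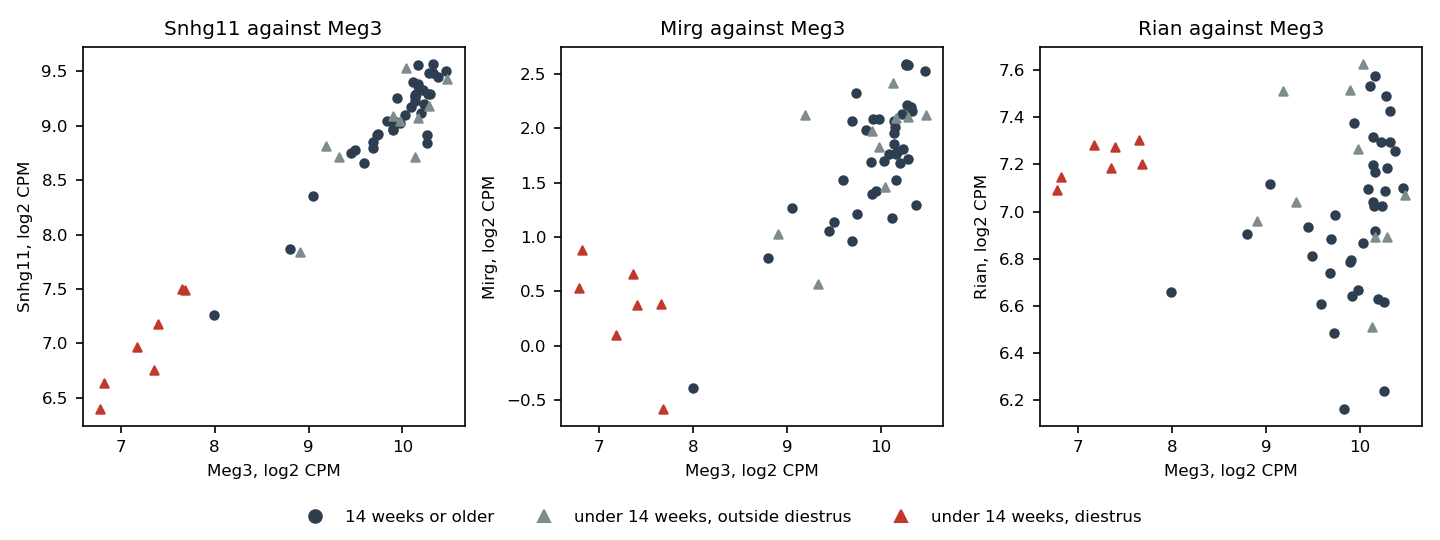
Snhg11, Mirg and Rian (vertical axes) against Meg3 (horizontal axis), all as log2 CPM, 1 point per mouse, 55 mice, red for the 7 younger diestrus mice. Snhg11 rises with Meg3 along a line, Mirg does so with more scatter, and the red points of Rian, at 136 to 158 CPM, lie within the range of the other mice.

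Outside diestrus a few mice lay low for several RNAs at once. The WT male replicate 2 (23.71 weeks, 57073939 counts) had 358 CPM of Malat1, 255 of Meg3, 10.8 of Miat, 153 of Snhg11, 9.99 of 9530059O14Rik and 0.757 of Mirg, the lowest value outside diestrus for each. The WT male replicate 1 (12.00 weeks) had 655 CPM of Malat1 and 479 of Meg3, and the KO metestrus replicate 5 (22.57 weeks) had 767 and 445 CPM. The r values given without 2 mice left out those farthest from the median in 1 gene, not all of the mice named here. The part of these mice in the correlations was not tested.

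Genes most like the set were found by their r with the mean scaled level of the 10 over 55 mice, with group means removed, and so are ranked in part by the younger against older diestrus difference. The highest were C78859 (r 0.95, a long intergenic RNA), Gm43843 (0.94) and 4930518I15Rik (0.93), both loci whose coding status is to be tested, and the protein-coding genes Fyco1 (0.93) and Luc7l3 (0.93). Luc7l3, a protein related to the splicing machinery, was also first for Malat1 (r 0.92), with medians of 105 CPM in younger and 186 CPM in older diestrus mice. Gm43843 (0.90) and Gm38384 (0.89) followed for Malat1. For Meg3 they were Gm43843 (0.97; 1.68 against 22.1 CPM), Ftx (0.96; 4.78 against 23.0 CPM), a non-coding gene of the X-inactivation centre, and Mir124a-1hg (0.95; 17.0 against 61.5 CPM), host of a neuronal microRNA. Among those at the other end were Vps53 (−0.76), Pja1 (−0.75), Ppp2r1a (−0.74) and Atp5a1 (−0.74), all protein coding.

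Proteins of the bodies that hold these RNAs were set beside them, in the same younger against older diestrus contrast and so as a description. All list counts for this contrast stand beside the 35.6% of all genes that passed it, 3248 lower and 2502 higher, and nothing particular to a list is read from them. Of 10 nuclear speckle proteins 6 passed FDR 0.05 lower and 0 higher, with a median log2 difference of −0.27. Srsf2, a splicing factor, was at −1.34 ± 0.15 and Clk1, a kinase of splicing factors, at −1.24 ± 0.13, while Srsf5 was at 0.07 ± 0.10 and Srsf3 at −0.01 ± 0.06. Of 10 paraspeckle proteins 3 passed higher and 3 lower, with a median of −0.04: Rbm14 was at 0.39 ± 0.10, Hnrnpk at 0.31 ± 0.09, Sfpq at −0.30 ± 0.11 and Pspc1, which did not pass, at −0.41 ± 0.19. Outside diestrus 0 of the 10 speckle and 0 of the 10 paraspeckle proteins passed for age. Only 0.489% of all genes passed there, so nothing is read from these counts.

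Of 18 other long non-coding RNAs tested, out of 20 listed, 3 passed higher and 4 lower in younger diestrus mice, with a median of 0.10. Ftx was at −2.33 ± 0.20 and Dleu2 at −0.83 ± 0.15, while the snoRNA hosts Snhg12 and Gas5 were at 0.39 ± 0.13 and 0.37 ± 0.12. Of 8 tested genes next to the 10, out of 13 listed, 1 passed higher (Tssc4, 0.29 ± 0.10) and 2 lower, Rtl1 the farthest. Begain, beside the imprinted domain, was at 0.26 ± 0.13 and Frmd8, beside Malat1, at −0.28 ± 0.13, and neither passed.

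Markers of cell types are given for the same contrast, beside the same 35.6% of all genes. Of 8 mature oligodendrocyte markers 5 passed lower (median −0.70, Mag at −1.26 ± 0.15), while Mbp (0.05 ± 0.12) and Mobp (0.07 ± 0.13) did not. Their summed level was 3131 to 4002 CPM in younger and 3408 to 5602 CPM in older mice. Of 5 CA1 pyramidal markers 3 passed lower (252 to 347 against 338 to 400 CPM summed) and of 5 dentate granule markers 4 did (201 to 258 against 268 to 374 CPM). Of 5 choroid plexus markers 1 passed higher, Ttr at 3.64 ± 1.40, with summed levels of 128 to 1124 CPM in younger and 24.5 to 164 CPM in older mice. Of 5 pan-neuronal markers 2 passed higher and 1 lower, and their sum was 8019 to 9226 against 6854 to 8406 CPM. The choroid plexus sum had medians of 302 and 47.8 CPM, and none of the markers was at 0 in all younger diestrus mice. The part of these cell types in the levels of the 10 RNAs was not tested.

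Deposited transcript estimates gave another view of the same libraries for Snhg11, and transcripts of the other 9 genes were not analysed here. The main transcript, Snhg11-206, had a median of 67.7 CPM in younger and 429 CPM in older diestrus mice, and 335 CPM outside diestrus. Snhg11-207 had 33.6, 151 and 144 CPM, Snhg11-205 had 5.00, 16.1 and 16.1 CPM, and the more abundant of its intron-keeping transcripts had 3.65, 19.6 and 17.2 CPM. All of these were lower in the younger mice, by 3.22 to 6.33 times. Summed over its 7 transcripts the gene was at 115 against 604 CPM, a log2 ratio of −2.40, beside −2.33 from the gene counts, and transcripts that keep an intron made up 3.02 and 3.20% of the sum. That intron-keeping share was thus close in median, and its ranges overlapped, at 2.51 to 4.79% in younger and 3.05 to 3.62% in older diestrus mice. Single forms varied more. Among the rarer ones, Snhg11-204, which keeps an intron, was lower by 2.81 times and Snhg11-208 by 2.29 times.

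Over all other genes, transcripts labelled as keeping an intron took a smaller share of transcript CPM in the same mice. This measure was chosen after the data were seen. The share was 2.46 to 2.57% in the 7 younger diestrus mice (median 2.51%), 3.02 to 3.55% in the 5 older ones (median 3.21%) and 2.53 to 3.68% in the 43 outside diestrus (median 3.19%). The younger and older diestrus mice did not overlap, and the lowest mouse outside diestrus was the WT male replicate 2, which was also the lowest for Meg3. Over the 43 mice outside diestrus the share followed the mean level of the 10 RNAs with r of 0.83 and rho of 0.73, and r of 0.76 without the 2 farthest mice. Group means were not removed here, so group differences enter these values, unlike the correlations between the 10 RNAs above. The points share library, depth and RNA quality, and the correlation is a description. RNA was taken from the supernatant of a detergent lysate after a spin that can leave nuclei behind. The amount of nuclear material in each sample was not measured, and its part in these values was not tested.

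**Figure D5:**
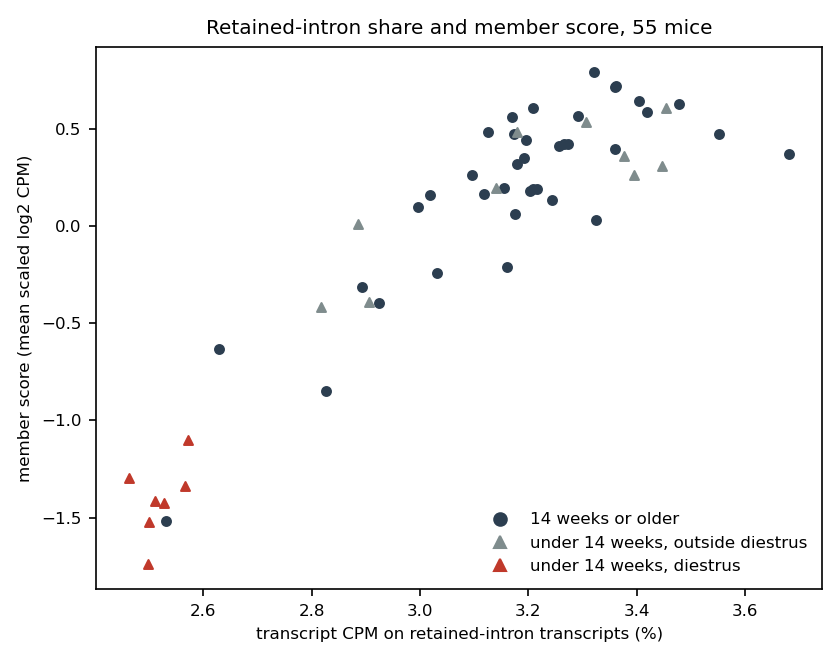
Mean scaled log2 level of the 10 RNAs (vertical axis) against the share of transcript CPM in transcripts labelled as keeping an intron (horizontal axis, percent, genes other than the 10), 1 point per mouse, 55 mice, red for the 7 younger diestrus mice. The red points lie at the lower left, at 2.46 to 2.57%, and the WT male replicate 2 lies next to them at 2.53%.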

How the data were processed

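RNA was sequenced from 55 mice in 10 groups. Per the submitters' processing notes and the study's methods, the authors aligned reads to GRCm38 (Ensembl annotation) with STAR 2.7.9a, counted uniquely aligned reads per gene with featureCounts 2.0.3 and estimated transcripts with Salmon 1.5.2. The deposited gene counts are raw whole numbers. The deposited transcript CPM values were scaled by the authors to each library's total. Counts per gene normalized by the authors, transcript counts and moderated values were not used. One column of the gene table matched no labelled mouse, and it was left out (1 column).

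Of 55774 lines, 287 repeated another line. The filter on low values asked for more than 1 CPM in 10 or more libraries and dropped 5 ribosomal RNA genes, after the study's methods, which left 16168 genes. TMM scaling (edgeR 4.0.16) and limma 3.58.1 (voomWithQualityWeights, eBayes, R 4.3.3) were fitted to all 55 mice with 10 group means. For age, terms for mice under 14 weeks were added outside diestrus and in WT and KO diestrus. FDR is by Benjamini-Hochberg over all genes tested, and log2 CPM used a prior count of 0.5. Each mouse is a separate animal. Alternatives were DESeq2 1.42.0, quasi-likelihood fits in edgeR, no filter, voom with no quality weights, age as a covariate, mice of Cnih3 x B6 parents alone (parents as the study lists them), and leaving out each mouse. The scripts were tested on simulated data.

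All 10 genes are named. So are the 5 other genes with the highest and the 5 with the lowest r with their mean scaled level, and the 3 most like Malat1 and Meg3. For gene lists, the 2 highest and 2 lowest members are eligible for naming. Some genes that these rules name are not reported here. The genes and lists were chosen with earlier results of these data known. Exon lengths come from GENCODE vM21, and promoter windows from RefSeq (GRCm38.p6). Python 3.11.15, pandas 2.3.3, numpy 2.4.6 and matplotlib 3.10.9 were used.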

Additional observations from a re-analysis of the deposited data

Results flagged for a closer look

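In 100 tests of 1 mouse against the rest of its group (10 RNAs in 10 groups, Dixon's test on log2 CPM), 8 tests, in 7 mice, found 1 mouse apart, and chance gives about 1 in 20. In KO estrus, replicate 1 was low for Meg3 (9.19, nearest 10.1, n = 6) and Miat (4.07, nearest 5.38). It is the youngest mouse of that group, at 13.00 weeks. For 9530059O14Rik the WT male replicate 2 was low (3.32, nearest 4.397, n = 5), the mouse that was also lowest outside diestrus for Malat1 and Meg3, and the KO proestrus replicate 4 was high (5.47, nearest 5.31, n = 4). Rian was high in the KO diestrus replicate 1 (7.58, nearest 7.30, n = 6). Kcnq1ot1 was high in WT metestrus replicate 3 (4.18, nearest 3.28, n = 4) and low in WT estrus replicate 5 (1.91, nearest 3.00, n = 7). Pantr1 was high in the WT male replicate 1 (7.77, nearest 7.32, n = 5), which was 12.00 weeks old. The cause of these values was not tested.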

How the results depend on the processing

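The younger against older diestrus median over the 10 RNAs kept its direction under edgeR (−2.01), DESeq2 (−1.99), voom without weights (−1.99), Cnih3 x B6 parents alone (−1.85) and each mouse left out (−2.03 to −1.85). The medians of whole diestrus groups moved. In WT diestrus against estrus the median of −1.45 became −0.72 (edgeR), −0.71 (DESeq2) and −1.14 (no weights), and ran from −1.98 to −0.49 with 1 mouse left out. In WT diestrus against males −0.97 became −0.20 by both edgeR and DESeq2, −0.52 (no weights) and −1.75 (Cnih3 x B6 parents alone), and ran from −1.49 to 0.045, with the sign turned without WT diestrus replicate 3 (0.038) or 4 (0.045). In KO diestrus against estrus −1.75 became −0.92, −0.91 and −1.37 by edgeR, DESeq2 and no weights, and against males −1.51 became −0.63, −0.63 and −1.06. The quality weights count the 55 libraries unequally, and the medians without weights also lay apart from those by edgeR and DESeq2. Why these medians moved was not tested further. The number of the 10 that passed ran from 0 to 7 in WT diestrus against estrus, 0 to 9 in WT diestrus against males, 0 to 8 in KO diestrus against estrus, 3 to 9 in KO diestrus against males and 7 to 9 in younger against older diestrus, over the settings of tool, weights, filter, age covariate and parents, mice left out aside. The counts over all genes in these settings also moved and are given below.

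Of the 10 RNAs, the number that passed outside diestrus changed as follows. In WT proestrus against estrus it was 1 instead of 0 with age as a covariate (Rian), and 0 to 1 with 1 mouse left out (1 without WT estrus replicate 7). In WT metestrus against proestrus it was 0 instead of 1 by edgeR, DESeq2, no weights and no filter, and 0 to 1 with 1 mouse left out (0 without WT metestrus replicates 1, 2 or 3 or WT proestrus replicates 1 or 3). In KO proestrus against estrus it was 0 with no filter and 0 to 1 with 1 mouse left out (0 without KO estrus replicates 2 or 3 or KO proestrus replicate 3). In KO metestrus against proestrus it was 0 by edgeR, no weights and no filter, 2 with age as a covariate (Malat1 and Rian), and 0 to 2 with 1 mouse left out (0 without KO metestrus replicates 1, 2 or 3 or KO proestrus replicates 1, 3 or 4, 2 without KO metestrus replicate 4). In females against males it was 0 with no weights, no filter or the age covariate, and 0 to 1 with 1 mouse left out (0 without KO proestrus replicates 1 or 2). In younger against older mice outside diestrus it was 0 with no filter and 0 to 1 with 1 mouse left out (0 without any of the 5 KO metestrus mice, KO proestrus replicates 2 or 3 or WT proestrus replicate 4). The calls lost there were of Rian, whose 5 differences kept their sign in 141 of 141 settings and their call in 105.

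Counts over all genes moved by more than 1.5 times: 0 to 1340 genes passed in WT proestrus against estrus, 0 to 200 in WT metestrus against proestrus, 4 to 629 in KO proestrus against estrus, 0 to 1076 in KO metestrus against proestrus, 91 to 361 in KO against WT, 17 to 76 in females against males, 6 to 241 in younger against older mice outside diestrus, 2732 to 6717 in younger against older diestrus, 2 to 3576 in WT diestrus against estrus, 5 to 6896 in WT diestrus against males, 14 to 5063 in KO diestrus against estrus and 813 to 4851 in KO diestrus against males. In WT metestrus against estrus 17 genes passed with no filter. Cnih3 x B6 parents alone was not run for the other comparisons within WT, for genotype, for sex and for the interaction, since it leaves 1 mouse each in WT metestrus, proestrus and estrus. No paired analysis was possible because replicate numbers only name mice in the order listed. Precision was limited by the 2 older KO diestrus mice, by 4 to 7 mice per group elsewhere and, for Mirg, by its 34 to 308 counts per library.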

Other observations

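Other classes of transcript differed between younger and older diestrus mice, where 35.6% of all genes passed and 9.51% had every younger mouse below every older one. Of 306 tested loci of the annotation class TEC, whose coding status awaits experiments, 190 passed FDR 0.05 lower and 1 higher (limma), with a median log2 difference of −1.18. Every younger mouse lay below every older one for 34.6% of them. Of 1168 processed pseudogenes 10 passed lower and 236 higher, with a median of 0.30. Annotated long intergenic RNAs as a class stood near 0, with 83 of 393 lower and 35 higher and a median of −0.01, and protein-coding genes likewise, with 2811 of 13482 lower and 2164 higher and a median of −0.03. Antisense RNAs had 52 of 310 lower and 17 higher. Processed pseudogenes share reads with their parent genes, so their values are uncertain.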
